A study of Caenorhabditis elegans with 12 samples.

Results

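Many genes of the nematode Caenorhabditis elegans are still known only by a sequence name, such as T26H5.9, which gives the sequenced clone and the number of the gene on it. The genes described here are those among them that stood higher in worms kept on glucose. They were chosen by 3 criteria, namely a sequence name in the gene table, a mean above 2 FPKM over all libraries, and a mean log2(FPKM + 1) at least 0.7 higher in the glucose group than in the control group. FPKM counts sequenced fragments scaled by transcript length and by library size, and a difference of 0.7 is 1.62-fold on the FPKM + 1 scale. In all, 167 genes met the rule, out of 4538 sequence-named genes with a mean above 2 FPKM, 7918 sequence-named genes and 15365 genes in the table.

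RNA was sequenced from whole wild-type N2 worms in 12 libraries, 3 in each of 4 groups. Control worms had no added glucose, Glu worms had 2% glucose in the agar, DMSO+Glu worms had 2% glucose with the solvent dimethyl sulfoxide at 0.1%, and Nar+Glu worms had 2% glucose with 25 μM naringin, a flavonoid of citrus fruit, in that solvent. By the methods of the study, all 4 groups were exposed for 5 days at 20 °C from the last larval stage on a lawn of OP50 bacteria, their progeny was removed each day by sedimentation, and the libraries were made from poly(A)-enriched RNA. The labels do not say whether replicates came from separate cultures, so p-values measure the spread between these samples, which may be technical.

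Added glucose in the medium is widely used to overload worms with sugar, and it raises fat stores and shortens life. Sugar that is not burned is partly turned into glycerol-3-phosphate, the backbone of stored fat, and 3 of the 167 genes belong to a family that removes the phosphate from it. For most of the other genes the annotation used here gives no name beyond the sequence name, so they are described by position, gene type and level.

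The values showed no library far from its group. Correlations of log2(FPKM + 1) between libraries were 0.987 to 0.992 within groups and 0.965 to 0.988 between groups, and FPKM values summed to 308900 to 362748 per library. The number of fragments behind them is unknown. Of 8 marker lists for the tissues of a whole worm, each had most of its genes measured and none at 0 throughout. The sums that moved most between groups were those of sperm and pharynx, and the sperm values are given below beside the genes they moved with.

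The 167 genes were weakly expressed. Their mean over the 12 libraries ranged from 2.00 to 115 FPKM with a median of 5.07 FPKM, against 10.8 FPKM for all 4538 sequence-named genes above the same minimum, and 78 of them lay below 5 FPKM. Their annotated transcripts were short, with a median of 725 bases and 3 exons against 1185 bases and 5 exons for the 4538. Single-exon genes made up 24 of the 165 genes placed on the genome, or 14.5%, against 4.45%. By type, 149 genes were protein coding (89.2% against 96.2%) and 16 were noncoding RNA (9.58% against 2.80%), and C03A7.12 and Y46E12BR.1 were not matched to the annotation. The log2(FPKM + 1) scale understates the ratios of such low genes.

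Chromosome V held 46 of the 165 placed genes, which is 27.9% against 18.6% of the sequence-named genes, and chromosome III held 11, which is 6.67% against 16%. The other chromosomes held shares nearer to the background, with 25 genes on I (15.2% against 16.5%), 31 on II (18.8% against 17.6%), 32 on IV (19.4% against 16.8%) and 20 on X (12.1% against 14.2%). These are counts of chosen genes and were not tested. Of the placed genes, 50 overlapped a gene on the opposite strand (30.3% against 33.5%). The kit keeps the strand, but whether counting used it is not given in the sources used here, so reads of such overlapping pairs may not have been told apart.

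**Figure D1:**
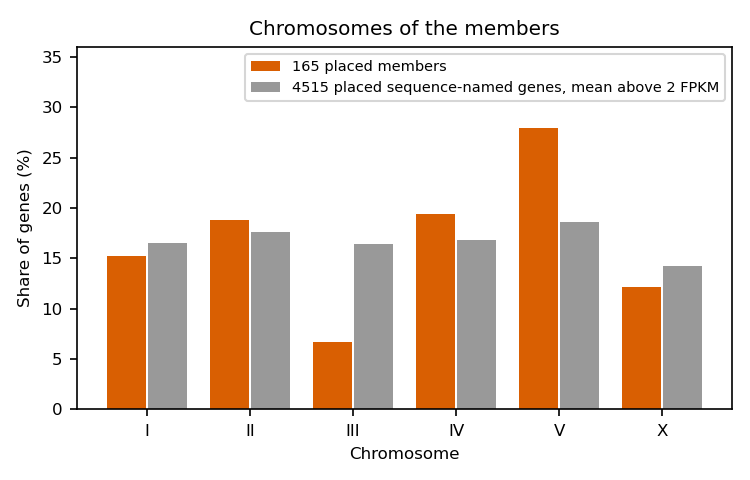
Share of the 165 placed genes on each chromosome (orange bars, %) beside the share of the 4515 placed sequence-named genes with a mean above 2 FPKM (grey bars, %). Chromosome V stands above its background share (27.9% against 18.6%) and chromosome III below it (6.67% against 16%).

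The genes together rose from 923 to 1038 summed FPKM in the Control libraries to 2033 to 2300 in Glu. In DMSO+Glu the sum was 1687 to 1822 and in Nar+Glu 2084 to 2156. The DMSO+Glu libraries lay between Control and the other groups without overlap, and the Glu and Nar+Glu ranges overlapped. In whole worms, fewer cells of a type and less RNA per cell cannot be told apart.

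The Glu and Control libraries chose the genes, so their difference is a description. It ran from 0.70 to 2.13 on the log2 scale with a median of 0.94, and 64 genes differed by 1 or more. All 3 Glu libraries lay above all 3 Control libraries in 159 of the genes, where 17.9% of the 12151 genes with a mean above 1 FPKM did so. The rule set that count, and nothing is read from it. At the threshold, T28B8.1 (0.70), F09E8.8 (0.71) and T23B3.5 (0.71) lay just inside, and K09F6.10 (0.70), F46C3.6 (0.69) and D2096.5 (0.69) just outside.

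The other 2 glucose groups were set beside Control without a test, since the comparison shares the Control libraries with the rule. The rule took genes low in Control, which favours higher values in any other group. The differences and shares below are therefore a description, and nothing is read from how far they exceed the background. DMSO+Glu lay above Control by a median of 0.68 log2 units, in a range of -0.27 to 2.34, and 157 of the genes were higher and 10 lower in mean. Its libraries lay above all Control libraries in 121 genes (72.5%), against a background of 14.4% of all genes tested. Nar+Glu lay above Control by a median of 0.96 in a range of -1.27 to 2.14, with 151 genes higher and 16 lower. Its libraries lay above all Control libraries in 140 genes (83.8%), against 24.2%. In 115 genes (68.9%) both groups lay clear of Control, and no share over all genes was computed for this joint count.

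Set beside Glu, the DMSO+Glu values were mostly lower and the Nar+Glu values were spread around it. DMSO+Glu lay below Glu in the mean of 138 genes, with a median difference of -0.28. All Glu libraries lay above all DMSO+Glu libraries in 76 genes, against 7.93% of all genes, and the opposite held for 3 genes, F32H5.3, B0507.8 and Y58A7A.5, against 7.28%. Nar+Glu lay above Glu in 84 genes and below it in 83. All Glu libraries lay above all Nar+Glu libraries in 42 genes, against 15.8% of all genes, and all Nar+Glu libraries above all Glu libraries in 22, against 14.4%. The Glu libraries were among those that chose the genes for being high there, so a lower value elsewhere is not a finding.

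**Figure D2:**
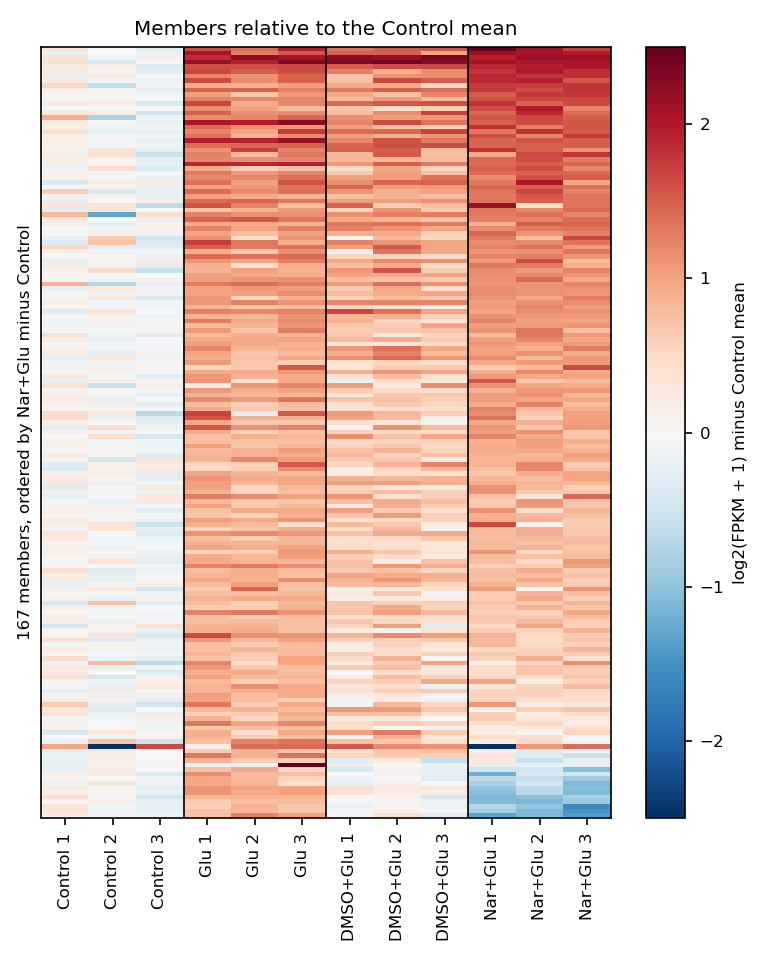
Each row is 1 of the 167 genes and each column 1 of the 12 libraries, and colour gives log2(FPKM + 1) minus the mean of the 3 Control libraries (red higher, blue lower, colours end at 2.5 either way). Rows are ordered by Nar+Glu minus Control. Most rows are red in all 3 glucose groups, and a block of rows at the bottom is red in Glu, near white in DMSO+Glu and blue in Nar+Glu.

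The genes with the largest differences between Glu and Control were led by T02B11.4, a protein-coding gene on chromosome V (869482 to 871129, assembly WBcel235, minus strand). It was measured at 2.76, 1.09 and 1.96 FPKM in the Control libraries, 11.8, 9.78 and 13.2 in Glu, 13.3, 14.3 and 12.7 in DMSO+Glu, and 10.9, 10.6 and 10.9 in Nar+Glu. All 9 glucose libraries lay above the 3 Control libraries, and the difference of Glu from Control was 2.13 log2 units. C54C8.12, on chromosome I, had the same shape at a higher level. Its values were 9.49, 6.51 and 6.42 FPKM in Control, 29.2, 37.8 and 33.7 in Glu, 38.6, 35.7 and 42.4 in DMSO+Glu and 30.9, 36.2 and 35.6 in Nar+Glu. Y47H10A.5, also on chromosome I, was at 3.70, 3.44 and 2.12 FPKM in Control, at 10.6 to 11.6 in the 6 libraries of Glu and DMSO+Glu, and at 14, 14.8 and 15.4 in Nar+Glu. The solvent group and the glucose group overlapped in these genes.

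F45D11.14, F45D11.15 and F45D11.16 lie next to each other on chromosome II (1004616 to 1006475, 1010444 to 1012282 and 1016262 to 1018100, all on the minus strand). F45D11.16 was at 3.85, 3.32 and 2.74 FPKM in Control, 16.42, 15.7 and 19 in Glu, 9.12, 12.3 and 9.82 in DMSO+Glu, and 11.1, 12.2 and 11.6 in Nar+Glu. In this gene the Glu libraries stood above the 2 solvent groups, which stood above Control. Its neighbours followed it closely, with F45D11.15 at 0.895 to 0.935 of the FPKM of F45D11.16 and F45D11.14 at 0.801 to 0.947 of that of F45D11.15 in every library. Genes with such near-equal values may share reads, and how the authors' counting divided them is not given in the sources used here, so they may be fewer than 3 independent measurements. The same holds for F44E5.4 and F44E5.5, also neighbours on chromosome II, whose FPKM ratio stayed between 0.922 and 1.06. F44E5.4 was at 1.17, 1.09 and 0.972 FPKM in Control, 3.93, 4.16 and 3.59 in Glu, 2.43, 3.4 and 2.92 in DMSO+Glu and 2.23, 2.26 and 3.17 in Nar+Glu.

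In all, 37 of the placed genes (22.4%) lay within 10 kb of another of the 167, in 3 runs of 3 genes and 14 pairs, some of them the near-equal neighbours above. No share was computed for other sequence-named genes. Another run of 3 holds the pgph genes, which encode homologs of the mammalian enzyme that removes phosphate from glycerol-3-phosphate and phosphoglycolate. In C. elegans they are known for turning glycerol-3-phosphate into glycerol when glucose is in excess. They lie on chromosome V, pgph-1 (K09H11.7) at 5752352 to 5753532, pgph-3 (C53A3.2) at 5762494 to 5763846 and pgph-2 (F44E7.2) at 5765127 to 5771768.

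The pgph genes stood above Control in every glucose library and differed little among the glucose groups. pgph-1 was at 12.9, 10.8 and 10.8 FPKM in Control, 25.4, 28.7 and 25.6 in Glu, 28.1, 28.2 and 28 in DMSO+Glu and 24.6, 26.6 and 27.4 in Nar+Glu. pgph-3 was at 13.4, 11.5 and 11.3 FPKM in Control, 33.1, 34.8 and 35.1 in Glu, 34.7, 39.0 and 39.2 in DMSO+Glu and 34.9, 35.3 and 36.2 in Nar+Glu. pgph-2 was at 29.3, 23 and 23.3 FPKM in Control, 51.7, 45.1 and 49 in Glu, 52.7, 52.1 and 47.8 in DMSO+Glu and 47.7, 46.1 and 44.8 in Nar+Glu. The differences of Glu from Control were 1.14, 1.44 and 0.93 log2 units for pgph-1, pgph-3 and pgph-2. Between Nar+Glu and DMSO+Glu none of the 3 was called by limma, with differences of -0.10 ± 0.08 (SE), -0.08 ± 0.07 and -0.14 ± 0.09 and adjusted p of 0.446, 0.506 and 0.331 in the same order.

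**Figure D3:**
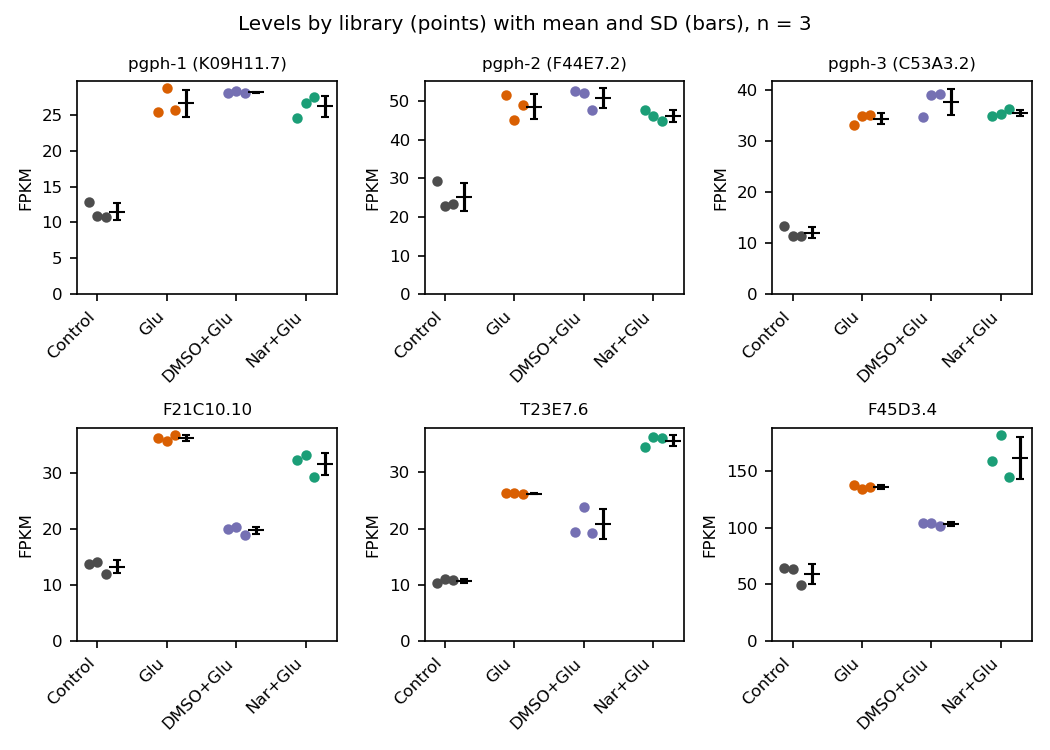
FPKM (linear axes from 0) of the 3 pgph genes and of F21C10.10, T23E7.6 and F45D3.4 in each library (points, coloured by group) with the mean and SD of 3 libraries (black). The pgph genes stand at one level in the 3 glucose groups, while in the lower panels the DMSO+Glu libraries lie below those of Glu and Nar+Glu.

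What naringin adds to glucose and solvent is addressed by setting Nar+Glu against DMSO+Glu. Its 6 libraries did not enter the difference that chose the genes, although all 12 entered the minimum of 2 FPKM. A gene near that minimum could thus pass it through high Nar+Glu values. It was tested with limma on log2(FPKM + 1) over the 12151 genes with a mean above 1 FPKM, which holds all 167, and a gene was called at a Benjamini-Hochberg adjusted p below 0.05. Of the 167 genes, 37 rose (22.2%, against 4.87% of all genes tested) and 12 fell (7.19%, against 5.00%), while 118 were not called. Their median difference was 0.23 log2 units against -0.01 over all genes tested, and 127 were higher in mean. At an unadjusted p below 0.05 in either direction the count was 81 (48.5%), against 26.9% of all genes tested. Among all 4538 sequence-named genes, 248 (5.46%) rose and 151 (3.33%) fell.

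Of the genes that carry a gene name and meet the same level and difference criteria, 31 rose (21.8%), 34 fell (23.9%) and 77 were not called, with a median of 0.07. The 34 sequence-named genes that were lower in Glu by the same difference gave 0 that rose and 3 that fell by limma, with 7 at an unadjusted p below 0.05 (20.6%, against 26.9% of all genes tested). These counts stand beside each other without a test of their difference.

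How many of the 167 genes rose depended on single libraries. Without the third DMSO+Glu library 20 rose, and without the first DMSO+Glu library or the first Nar+Glu library 24 rose. In all, 19 of the 37 rose and 8 of the 12 fell whichever library was left out.

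**Figure D4:**
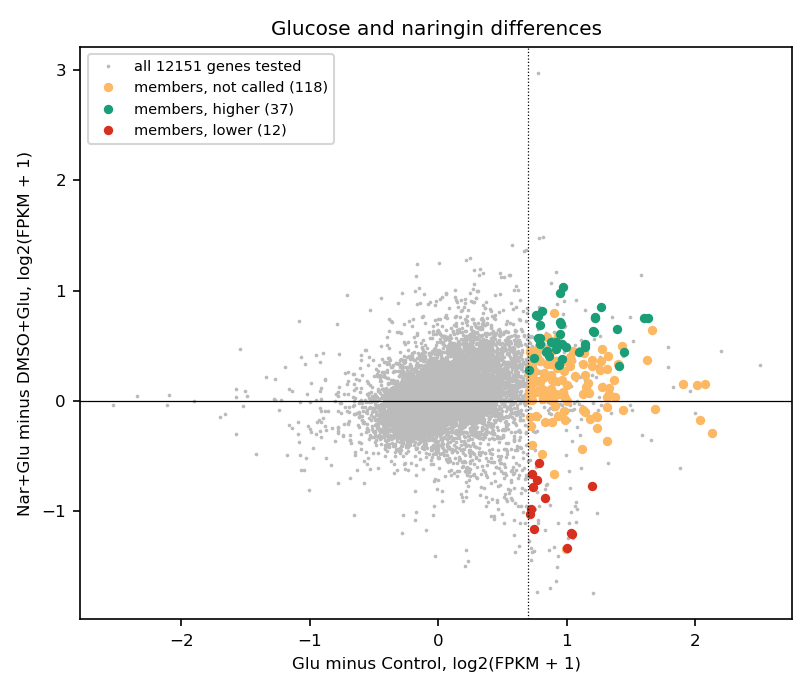
Each point is a gene, with Glu minus Control on the x axis and Nar+Glu minus DMSO+Glu on the y axis, both in log2(FPKM + 1). Grey points are all 12151 genes tested and coloured points the 167 genes, to the right of the dotted line at 0.7 by choice, with 37 that rose (green), 12 that fell (red) and 118 not called (yellow).

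The gene with the smallest p among those that rose was T23E7.6, on chromosome X (17680767 to 17684811). It was at 10.3, 11 and 10.8 FPKM in Control, 26.3, 26.3 and 26.1 in Glu, 19.4, 23.9 and 19.1 in DMSO+Glu, and 34.5, 36.3 and 36.1 in Nar+Glu. The 4 groups did not overlap, and Nar+Glu stood above DMSO+Glu by 0.75 ± 0.08 log2 units (SE, limma adjusted p = 5.26e-05). F21C10.10, on chromosome V (9096267 to 9097220), was at 13.8, 14 and 11.9 FPKM in Control, 36.1, 35.5 and 36.7 in Glu, 19.9, 20.2 and 18.9 in DMSO+Glu and 32.2, 33.1 and 29.3 in Nar+Glu. Here the Glu libraries were the highest, and Nar+Glu stood above DMSO+Glu by 0.65 ± 0.07 (limma adjusted p = 0.000104).

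F45D3.4, on chromosome V (12552213 to 12553191), had the highest mean of the 167 genes, 115 FPKM. It was at 64.5, 63.4 and 49 FPKM in Control, 138, 134 and 136 in Glu, 104, 104 and 102 in DMSO+Glu and 159, 182 and 145 in Nar+Glu. The order of the groups was that of T23E7.6, with no overlap, and the difference between the solvent groups was 0.63 ± 0.09 log2 units (limma adjusted p = 0.00115). T26H5.9, on the same chromosome (15444916 to 15445420), was at 24.5, 20.9 and 16.8 FPKM in Control, 67.3, 59.4 and 66.1 in Glu, 50.5, 39.99 and 47.4 in DMSO+Glu and 72.3, 85.0 and 76.2 in Nar+Glu. Its difference was 0.75 ± 0.12 (limma adjusted p = 0.00147).

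The other genes of the 6 with the smallest p were ZC443.3, C06B3.6 and C35C5.8. ZC443.3 rose from 10.2 to 13.8 FPKM in DMSO+Glu to 20.1 to 22.8 in Nar+Glu (0.77 ± 0.10 log2 units, limma adjusted p = 0.000325). C06B3.6 rose from 16.7 to 21.5 FPKM to 28.3 to 29.7 (0.62 ± 0.09, adjusted p = 0.00124), and C35C5.8 from 2.47 to 2.95 FPKM to 4.66 to 5.10 (0.70 ± 0.11, adjusted p = 0.00128). C06B3.6 and C35C5.8 each have a neighbour among the 167 genes, C06B3.7 and C35C5.9, which were not called. C06B3.7 did not differ (0.005 ± 0.14 log2 units, limma adjusted p = 0.987). C35C5.9, whose annotated span overlaps that of C35C5.8 on the same strand, was higher in mean and just missed the call (0.45 ± 0.14, adjusted p = 0.0557). T23F2.4, one of the 10 with the largest difference of Glu from Control, was at 1.02, 1.27 and 1.49 FPKM in Control, 8.25, 4.54 and 5.64 in Glu, 5.38, 5.29 and 3.48 in DMSO+Glu and 9.09, 8.47 and 7.90 in Nar+Glu. Its difference of 0.75 ± 0.18 (limma adjusted p = 0.0192) lost its call without the third DMSO+Glu library (adjusted p = 0.0789) or without the first or second Nar+Glu library (0.0647 and 0.0506).

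Taking the 37 genes that rose as a set, their summed FPKM was 321 to 367 in Control, 736 to 794 in Glu, 553 to 587 in DMSO+Glu and 830 to 897 in Nar+Glu. In all 37 the Nar+Glu libraries lay above all Control libraries (24.2% of all genes tested), in 28 the Glu libraries lay above all DMSO+Glu libraries (7.93%), and in 13 the Nar+Glu libraries lay above all Glu libraries (14.4%). The rule took genes low in Control and high in Glu and the call took genes higher in Nar+Glu than in DMSO+Glu, so these counts are largely set by the choice and nothing is read from them. Against Control their median differences were 0.95 for Glu, 0.59 for DMSO+Glu and 1.1 for Nar+Glu. They lay on every chromosome, with 7 on I, 6 on II, 2 on III, 4 on IV, 11 on V and 7 on X.

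Of the genes that carry a symbol in the annotation, 2 rose. lgmn-1 (T28H10.3), on chromosome V (12513056 to 12514941), encodes a protease of the legumain family, which cuts proteins after asparagine. It was at 36.4, 32.3 and 30.0 FPKM in Control, 56.0, 55.0 and 56.2 in Glu, 46.7, 49 and 49.6 in DMSO+Glu and 60.7, 68.5 and 62.4 in Nar+Glu. The 4 groups did not overlap, and Nar+Glu stood above DMSO+Glu by 0.39 ± 0.07 log2 units (limma adjusted p = 0.00404). cest-1.2 (T02B5.3), a gene of the carboxylesterase family on chromosome V, was at 1.81, 2.47 and 1.72 FPKM in DMSO+Glu and at 3.48, 3.09 and 3.23 in Nar+Glu (0.52 ± 0.15, adjusted p = 0.0437). It was at 2.3, 2.22 and 1.53 in Control, which overlapped DMSO+Glu, and its call was lost when any library of the 2 solvent groups was left out except the second of DMSO+Glu, when the second Glu library was left out (adjusted p from 0.0532 to 0.144), and under quantile normalization or without a filter on the mean.

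The symbol-bearing genes not called with the main settings were clik-2, nrsn-1, clc-15, nlp-79 and ddn-1 beside the pgph genes, nsph-4.1 and cylc-1. clik-2 (C53C9.2), of the calponin-like family, was at 18.0 to 20.4 FPKM in Control, 30.1 to 32.9 in Glu, 21.1 to 28.8 in DMSO+Glu and 27.8 to 34.6 in Nar+Glu (0.30 ± 0.10, limma adjusted p = 0.0849, called under quantile normalization or without the second DMSO+Glu library at 0.0489 and 0.026). clc-15 (F59C6.14), a claudin-like gene, was at 3.82 to 4.43 FPKM in Control and at 8.58 to 10.7 in the 9 glucose libraries. nlp-79 (F09E8.8), a neuropeptide gene, was at 0.751, 2.75 and 0.849 FPKM in Control and 2.41 to 3.02 in Glu, so that its second Control library lay within the Glu range.

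The 12 genes that fell in Nar+Glu against DMSO+Glu had another order of groups. Their summed FPKM was 67.5 to 81.8 in Control, 144 to 146 in Glu, 90.3 to 105 in DMSO+Glu and 45.7 to 56.3 in Nar+Glu. In 10 of them all Glu libraries lay above all DMSO+Glu libraries (7.93% of all genes tested), and in 9 all Nar+Glu libraries lay below all Control libraries (36.5%). The rule, which took genes high in Glu, favoured the first pattern, and the call favoured the second. Among the 167 genes, 11 showed Nar+Glu below Control in this way, and none showed DMSO+Glu below Control, against 25.9%. The rule also took genes low in Control, which works against values below it, so nothing is read from these counts. Against Control the median differences of the 12 were 0.78 for Glu, 0.04 for DMSO+Glu and -0.92 for Nar+Glu. They lay on chromosome IV (7 genes), I (4) and V (1).

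Y59E9AR.7 and Y59E9AR.1, 2 short genes within 10 kb of each other on chromosome IV (5241402 to 5241794 and 5249428 to 5249820), had the smallest p of those that fell. Y59E9AR.7 was at 5.30, 4.87 and 4.12 FPKM in Control, 11.4, 10.09 and 10.7 in Glu, 6.51, 5.58 and 5.61 in DMSO+Glu and 1.77, 2.61 and 1.68 in Nar+Glu. The groups did not overlap, with Glu highest and Nar+Glu lowest, and Nar+Glu stood below DMSO+Glu by a log2 difference of -1.20 ± 0.13 (limma adjusted p = 5.4e-05). Y59E9AR.1 gave -1.21 ± 0.14 (adjusted p = 0.000108), and the FPKM of Y59E9AR.7 was 1.00 to 1.21 times that of Y59E9AR.1 in every library, so this pair may also share reads.

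In the other genes with the smallest p, Glu was again highest and Nar+Glu lowest. nsph-3.2 (C04G2.9), on chromosome IV (10112870 to 10114287), was at 5.03, 5.73 and 4.05 FPKM in Control, 8.12, 8.94 and 9.08 in Glu, 4.76, 4.70 and 4.35 in DMSO+Glu and 1.74, 1.71 and 2.09 in Nar+Glu. Its DMSO+Glu libraries overlapped those of Control and had a lower mean, and the log2 difference between the solvent groups was -0.98 ± 0.12 (limma adjusted p = 0.000166). F08B4.8, on chromosome IV (8677603 to 8677974), was at 3.6, 2.84 and 2.75 FPKM in Control, 5.77, 8.62 and 7.22 in Glu, 3.17, 4.41 and 2.34 in DMSO+Glu and 0.630, 0.886 and 0.532 in Nar+Glu. Control and DMSO+Glu overlapped here too, and the difference was -1.33 ± 0.18 (adjusted p = 0.000432).

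C48E7.7 and T08B2.12 are neighbours on chromosome I, with differences of -1.16 ± 0.16 (limma adjusted p = 0.000549) and -1.03 ± 0.20 (adjusted p = 0.0053). Their FPKM stood in a ratio of 0.839 to 1.18, so they may share reads too. The third run of 3 genes lies on chromosome IV and holds nsph-4.2 (Y59E9AL.3, 5218796 to 5220169), cylc-1 (Y59E9AL.6, 5224894 to 5225772), named for a protein of the mammalian sperm head, and nsph-4.1 (Y59E9AL.2, 5226852 to 5228236). nsph-4.2 was at 2.79, 2.56 and 2.37 FPKM in Control, 5.93, 5.36 and 4.26 in Glu, 2.23, 2.52 and 1.90 in DMSO+Glu and 1.26, 1.38 and 0.900 in Nar+Glu. It was called at -0.56 ± 0.14 (adjusted p = 0.0221), a call lost without the first or second DMSO+Glu library (adjusted p = 0.0718 and 0.0619), without the third Nar+Glu library (0.0902), and with the 6 libraries alone (0.0518). cylc-1 (-0.40 ± 0.17, adjusted p = 0.157) and nsph-4.1 (-0.66 ± 0.22, adjusted p = 0.0676, 0.0336 under quantile normalization) were not called with the main settings, and both had all Nar+Glu libraries below all Control libraries.

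Markers of sperm moved with these genes. Of the 10 sperm markers listed, 8 were measured, and their summed FPKM was 37.9 to 46.4 in Control, 71.8 to 78.7 in Glu, 39.6 to 46.3 in DMSO+Glu and 13.9 to 20.8 in Nar+Glu. Of the 8, 5 fell in Nar+Glu against DMSO+Glu by limma. They were the major sperm protein genes msp-3, msp-19, msp-31, msp-76 and msp-142, whose product drives the crawling of nematode sperm. As genes of the same family these may share reads, so they may be fewer than 5 independent measurements. The sperm markers spe-11, gsp-3 and gsp-4 were lower in mean but not called (limma adjusted p = 0.154, 0.107 and 0.0855). None of the 8 was at 0 in any library. Their part in the result was not tested.

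**Figure D5:**
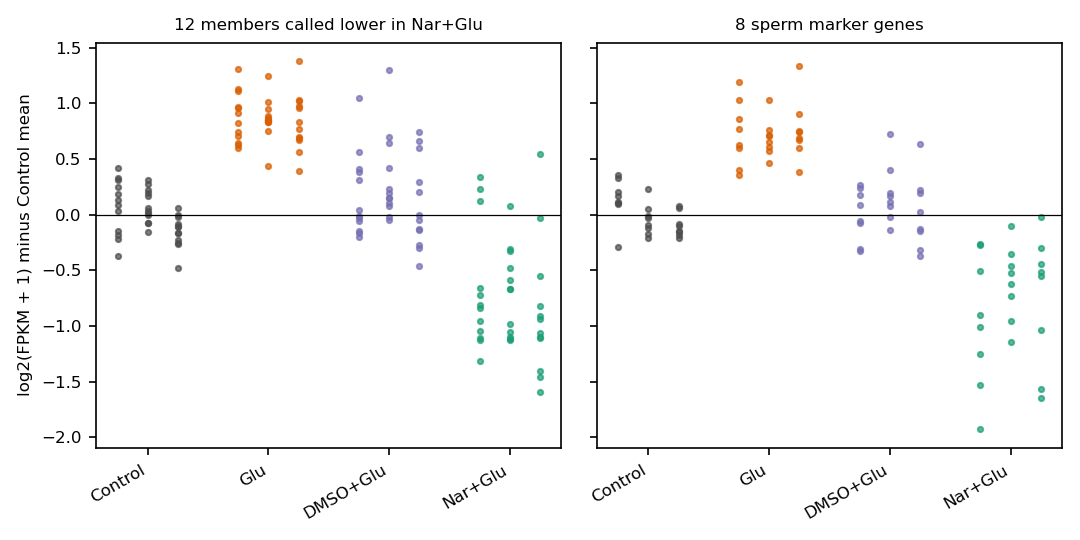
log2(FPKM + 1) minus the Control mean in each library, as 1 point per gene, for the 12 genes that fell in Nar+Glu (left) and the 8 sperm markers measured (right), in the 3 libraries of each group. Both sets lie above the Control mean in Glu, around or above it in DMSO+Glu, and mostly below it in Nar+Glu.

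Among the 12 genes, 3 did not have all Nar+Glu libraries below all Control libraries. Y48G8AL.12 and Y48G8AL.16 are neighbours on chromosome I. Y48G8AL.12 was at 21.1, 28.9 and 24.6 FPKM in Control, 39.2, 45.4 and 40.6 in Glu, 30.9, 40.6 and 42.1 in DMSO+Glu and 27, 19.5 and 24.1 in Nar+Glu, where the Control and Nar+Glu libraries overlapped. Y47D7A.15, on chromosome V, was at 7.05, 9.04 and 7.84 FPKM in Control, 21.2, 15.6 and 22.3 in Glu, 12.2, 13 and 12.5 in DMSO+Glu and 10.3, 6.23 and 5.10 in Nar+Glu (-0.77 ± 0.18, limma adjusted p = 0.0192).

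The remaining 7 marker lists moved less between Nar+Glu and DMSO+Glu by their median difference, which was -0.25 to 0.14 against -0.80 for sperm. Single members of them fell as far as sperm markers did. Examples were hypodermal col-19 (-1.35 ± 0.07, limma adjusted p = 1.1e-07) and intestinal vit-1 (-0.81 ± 0.06, adjusted p = 9.05e-07). The mean of col-19 was higher in Glu than in Control, and that of vit-1 was lower. Between Nar+Glu and DMSO+Glu, 5 of 12 intestinal markers, 2 of 8 muscle markers, 2 of 8 hypodermal markers and 3 of 10 germline markers fell, 2 of 8 neuronal markers rose, and none of the 6 embryonic and 8 pharyngeal markers tested was called. The neuronal markers summed to 162 to 181 FPKM in Control, 205 to 223 in Glu, 193 to 218 in DMSO+Glu and 216 to 227 in Nar+Glu. The pharyngeal markers summed to 68.6 to 90.4 FPKM in Control. In Glu, DMSO+Glu and Nar+Glu they summed to 131 to 153, 114.5 to 139 and 125 to 135. The sums of both lists thus stood above Control in all 3 glucose groups. The neuronal marker unc-119 had a lower mean in each of these groups (11.3 FPKM in Control, then 10.5, 9.60 and 11.1). All other neuronal markers had higher means in each, snb-1 by little (71.1 FPKM in Control, then 74.8, 72.5 and 73.6). What part these marker lists had in the result was not tested.

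Lists of genes for processes that glucose is known to touch were read beside the 167 genes. They are made of genes with gene names and so could not hold any of them. Among genes of fatty acid breakdown and desaturation 2 of 15 tested rose and 3 fell in Nar+Glu, among effectors of the response to pathogens and damage 2 of 16 rose and 2 fell, among osmotic and heat stress genes 1 of 10 rose and 1 fell, and among 15 detoxification genes none was called. The median differences of these lists were -0.14, 0.07, -0.10 and 0.01, in that order, against -0.01 over all genes tested. The gene nlp-29 is on both the pathogen and damage list and the osmotic and heat stress list, so its rise is counted in each.

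The 16 noncoding genes were the least steady. Their annotated length had a median of 149.5 bases, and 11 were shorter than 200 bases, a size at which FPKM rests on few positions. In 6 of them the Glu and Control libraries overlapped, against 2 of the 149 protein-coding genes, which were nlp-79 and Y43F8B.2. R166.6 met the rule through 1 library: it was at 47.7 FPKM in the third Glu library and at 0.229 or less in all 11 others. Y48B6A.25 was at 14.7, 0.262 and 24 FPKM in Control and 7.97, 19.7 and 20.0 in Glu, so that its mean difference rests on the second Control library. F31C3.14 and F31C3.16, neighbours on chromosome I with the highest means of this type beside Y53F4B.45, were at 18.6 to 27.3 and 15.6 to 25.1 FPKM in Control and at 34.8 to 70.2 and 29.6 to 48.2 in Glu.

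One noncoding gene was called between the solvent groups. Y53F4B.45, on chromosome II (15042805 to 15044011), was at 12.7, 10.7 and 10.8 FPKM in Control, 31.7, 26.7 and 25.3 in Glu, 24.7, 19.5 and 17.8 in DMSO+Glu and 42.6, 29.1 and 35.5 in Nar+Glu. Nar+Glu stood above DMSO+Glu by 0.76 ± 0.14 log2 units (limma adjusted p = 0.00411), and the Glu and Nar+Glu libraries overlapped.

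Among the 5 genes with the highest means, F08B12.4 and C50F7.5 were not called with the main settings. F08B12.4, on chromosome X, was at 60.1, 52.6 and 57.6 FPKM in Control, 82.0, 90.5 and 166 in Glu, 68.8, 88.5 and 90.4 in DMSO+Glu and 87.6, 101 and 179 in Nar+Glu. The third libraries of Glu and Nar+Glu stood far above their groups, and the difference between the solvent groups was 0.50 ± 0.25 (limma adjusted p = 0.216). C50F7.5, on chromosome IV, was at 26.7, 25.9 and 30.7 FPKM in Control, 56.2, 57.3 and 63.7 in Glu, 48.5, 53.6 and 55.9 in DMSO+Glu and 64.1, 61.7 and 59.7 in Nar+Glu (0.23 ± 0.08, adjusted p = 0.074, 0.0458 under quantile normalization).

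K01A6.8, on chromosome IV, was at 0.559 and 0.218 FPKM and listed at 0 in Control, and at 2.85, 2.25 and 3.83 in Glu, 2.23, 2.60 and 2.66 in DMSO+Glu and 6.59, 4.29 and 3.06 in Nar+Glu. It had the largest difference of Nar+Glu from Control among the 167 genes, 2.14 log2 units, and was not called between the solvent groups (0.65 ± 0.22, limma adjusted p = 0.0789, 0.0421 without the third Nar+Glu library). R05A10.1, on chromosome IV (14182377 to 14190691), was named after its values were seen. It was at 0.269, 0.741 and 0.527 FPKM in Control, 2.51, 2.26 and 3.11 in Glu, 1.44, 2.25 and 2.34 in DMSO+Glu and 4.59, 4.16 and 4.36 in Nar+Glu. Its 3 Nar+Glu libraries lay above every other library (0.85 ± 0.16, limma adjusted p = 0.00485). K01A6.8 and R05A10.1 had means of 2.60 and 2.38 FPKM over the 12 libraries. Both passed the minimum of 2 FPKM only with their Nar+Glu libraries included. Their high Nar+Glu values thus helped to choose them, and nothing is read from these values.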

How the data were processed

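Gene and transcript values were used as FPKM in the deposited table of each library. The authors enriched poly(A) RNA, made libraries with a stranded kit, aligned reads to WBcel235 with HISAT2 2.1.0 and estimated abundance with StringTie 1.3.3 (Ballgown was used for their own comparisons). The lowest gene had a highest group mean of 0.5 FPKM, so weaker genes had been removed. Circular RNA counts and series-wide tables were not used here. Groups came from the labels, and the exposure time and solvent share from the methods.

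The genes and lists were chosen with earlier results of these data known. The rule and the test used log2(FPKM + 1). Nar+Glu was compared with DMSO+Glu in limma 3.58.1 (R 4.3.3) with a mean-variance trend over all 12 libraries, for 12151 genes with a mean above 1 FPKM. The fit was tested on simulated data. The other comparisons share libraries with the rule and were not tested. Positions and gene types came from the Ensembl release 115 annotation of WBcel235, which matched 165 genes.

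The text names the 10 genes with the largest difference of Glu from Control, the 6 that rose and the 6 that fell with the smallest p, the 5 highest means, 3 on each side of the threshold, the 3 longest runs of neighbours and the 3 highest noncoding genes. Genes with an annotation symbol, F44E5.4, F44E5.5, Y48G8AL.12, Y48G8AL.16, Y47D7A.15, Y48B6A.25, Y43F8B.2 and R05A10.1, and those named only in counts, were added after their values were seen. Sequences, promoter motifs and product families were not analysed here. Alternatives were another pseudocount, scaling, filter, replicate block, spread model and set of libraries.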

Additional observations from a re-analysis of the deposited data

How the results depend on the processing

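The rule was most sensitive to the pseudocount. It found 306 genes with a pseudocount of 0.1, 39 with 5, and 89 with a mean above 5 FPKM, while median-ratio scaling gave 203, quantile normalization 131, and leaving out 1 library 159 to 228. The number of genes called in Nar+Glu against DMSO+Glu was 33 to 61 under the other settings and 30 to 54 with 1 library left out, against 49. The number that rose was 20 to 42 and the number that fell 9 to 12 with 1 library left out. The median difference of 0.23 moved to 0.14 with a pseudocount of 5 and to 0.16 under quantile normalization, and stayed at 0.18 to 0.25 with 1 library left out. The cause was not tested. With the replicate number as a block (replicate block), 34 genes rose and 11 fell. Residuals of same-numbered libraries correlated at -0.10 to 0.13 over 18 pairs, so the numbers were not taken to pair the samples.

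Over 42 named genes and 22 alternatives, 870 values kept direction and call, 19 lost the call, 13 gained it and 11 changed sign, none of them a called gene. Under quantile normalization the log2 difference was -0.0102 for F09E8.8, -0.0856 for T23B3.5 and -0.0221 for F59C6.14, and with array weights -0.0516 for F31C3.14. With 1 library left out, the values ran from -0.1814 to 0.237 for T23B3.5, from -0.1409 to 0.205 for F31C3.14, from -0.0655 to 0.079 for F59C6.14, and from -0.2052 to 0.0236 for B0507.10. T02B11.4, not called at -0.29 with 12 libraries, was called with the 6 libraries alone (limma adjusted p = 0.0464, 0.272 with 12), and Y47H10A.5 was called under 7 alternatives (adjusted p 0.0112 to 0.0498, 0.0763 with the main settings). Calls were also gained by nsph-4.1, C50F7.5 and clik-2 under quantile normalization, by clik-2 without the second DMSO+Glu library and by K01A6.8 without the third Nar+Glu library. Depth is unknown, and genes near 2 FPKM are the least certain.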

Other observations

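F45D3.4, the gene with the highest mean, had values for 4 transcripts, of which F45D3.4a.1 and F45D3.4a.2 took most of the signal in turn. F45D3.4a.2 was at 61.6, 130 and 171 FPKM in the second library of Control, Glu and Nar+Glu, and at 0.453 FPKM or less in the other 9 libraries, where F45D3.4a.1 held most of it. F45D3.4b.1 and F45D3.4b.2 reached at most 8.13 and 4.06 FPKM in any library. In those second libraries F45D3.4a.1 was at 4.69, 15.4 and 24.1 FPKM. The gene's own value was steady across replicates, so the split between these transcripts varied within groups and its differences between groups were not read. In all, 38 of the 167 genes had values for more than 1 transcript.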
